A study of Homo sapiens with 32 samples.

Results

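The effect of giving 2 epigenetic drugs together was read from 8 of the 32 RNA-seq libraries of a study of human T-cell cancer lines: the 4 libraries from cells exposed to romidepsin with azacitidine at 250 nM, and the 4 libraries from untreated cells of the same lines. The members were chosen by their titles, 1 pair of libraries per line, and all genes were compared. HH and H9 come from cutaneous T-cell lymphoma, TLOm1 comes from adult T-cell leukemia, and PF382 from acute lymphoblastic leukemia of T cells. Cells grew in logarithmic phase and were collected after 96 h, with romidepsin given once at the start and azacitidine added again every 24 h. The combination held romidepsin at 1.25 nM in PF382 and HH and at 1 nM in TLOm1 and H9, the titles giving the doses of combinations without a unit, read here as nM. HH is labelled 1 nM for romidepsin alone, so in that line the romidepsin dose differs between single drug and combination. Each line has 1 library per condition, so the replicates are 4 different cell lines, each a single established line, and the p-values describe the spread between these libraries.

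Romidepsin is a cyclic peptide that inhibits class I histone deacetylases, the enzymes that remove acetyl groups from histone tails; acetylated histones mark open, transcribed chromatin. Azacitidine is a cytidine analog that is built into RNA and DNA, where it traps DNA methyltransferases, so that methylation is lost as cells divide and genes silenced by promoter methylation can be transcribed. Both drugs have been given to patients with T-cell lymphoma.

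The 8 libraries held between 21031511 and 26080553 reads counted to gene symbols, and 17801 genes passed the filter on low counts and were tested. Levels are given as CPM, the count of a gene relative to the scaled total of its library, changes as log2 of combination over untreated with the standard error (SE) of the fit, and a gene is called where the adjusted p of edgeR's quasi-likelihood test with Benjamini-Hochberg adjustment is under 0.05. The T-cell label was checked on 12 pan-T-cell markers, whose summed level was 1110 to 5019 CPM in untreated cells and 1122 to 4410 with the combination. In untreated TLOm1 CD3D, LCK and TCF7 were near 0, at 0.768, 1.41 and 3.63 CPM, and LCK was at 0 counts in untreated HH. Bulk RNA cannot tell fewer cells of a kind from less RNA per cell.

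With the combination 2530 genes (14.2% of those tested) were called higher and 1559 (8.76%) lower, 23% in all. The higher changes were the larger ones, with 1753 of 2530 (69.3%) at least 2-fold against 134 of 1559 (8.6%) for lower genes. Of the higher genes 1681 (66.4%) were higher in 4 of 4 lines, against 15.3% of all genes tested. Of the lower genes 1322 (84.8%) were lower in 4 of 4, against 13.5%. The test that made the calls favours changes shared by the lines, so these shares describe the called genes and are no separate evidence. The lines responded to different extents, the median log2 change of the higher genes being 1.34 in PF382, 1.04 in TLOm1, 1.08 in HH and 0.69 in H9, while the lower genes fell by 0.35, 0.38, 0.42 and 0.36. Without PF382 1577 genes (8.96% of those then tested) were called higher and without HH 1595 (8.77%). Without HH 993 (5.46%) were called lower and without H9 1023 (5.65%), so these lines each move a count by more than 1.5 times.

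These counts rest on a spread estimated over all 32 libraries with 19 residual degrees of freedom, in which libraries of 1 line count as independent. Fitted on the 8 libraries alone, with cell line as a term, edgeR called 14 genes higher (0.0966%) and 8 lower (0.0552%) of 14499 tested, with 2806 (19.4%) at an unadjusted p under 0.05. All 22 were also called over the 32 libraries, in the same direction. The 14 higher ones were F2R, AKAP12, NXPH4, CREG1, NRGN, PLCD3, C1QL4, KRT18, FN1, LOC100129291, PDLIM7, ZNF365, NPTXR and BRDT, and the 8 lower ones INSIG1, C6orf223, LINC00263, LSS, SCD, LOC100652751, ACACA and KDM3A. F2R, PLCD3, C1QL4, NPTXR and KDM3A are named for this membership, after their values were seen. A two-sided sign-flip permutation over 4 lines has 16 patterns, of which the most extreme result takes 2, so it cannot reach 0.05 and was not used for single genes.

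The balance of higher and lower calls differed with the level of a gene. Among 3566 genes with a mean under 1 CPM over the 32 libraries 21.8% were called higher and 0.953% lower. Between 10 and 30 CPM the shares were 12.1% and 10.4%, and among the 2459 genes at 100 CPM or more 7.89% and 15.7%. In counts, 776 genes of the lowest class were higher and 34 lower, and 194 and 386 of the highest class. Precision differs with the level too, since a gene of low count needs a larger fold to be called. A gene hardly expressed in untreated cells can hardly be called lower, and it can pass the filter through treated libraries alone. The split in the lowest class is therefore partly fixed in advance.

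**Figure D1:**
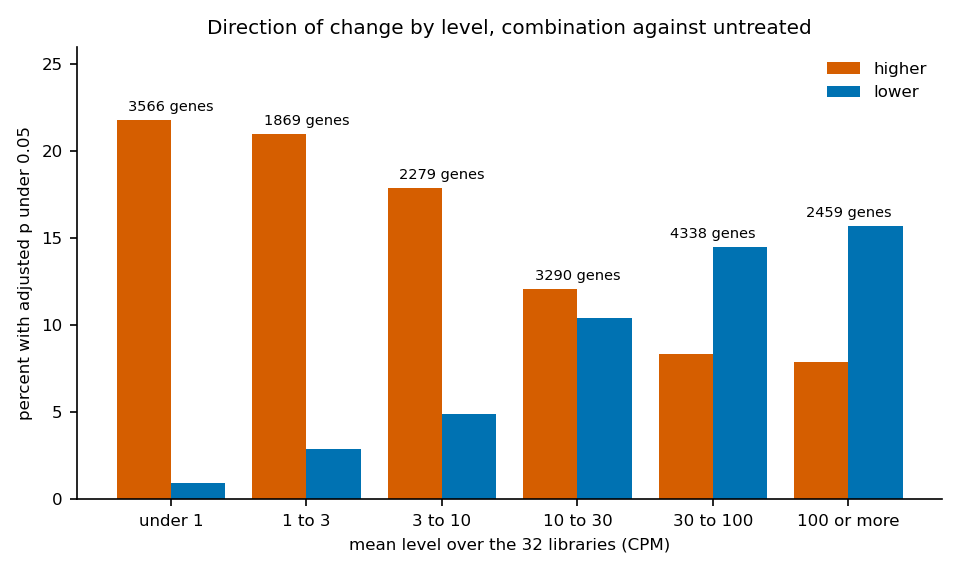
Percent of genes called higher (orange) and lower (blue) with the combination, on the vertical axis, in 6 classes of mean level over the 32 libraries in CPM, on the horizontal axis. The higher share drops from 21.8% under 1 CPM to 7.89% at 100 CPM or more, while the lower share climbs from 0.953% to 15.7%.

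The plot of gene lists sets the share called in 25 of the pathways and gene families examined beside the share over all genes; metallothioneins, with 5 of 6 tested members higher, are among those not plotted. The lists came from textbook knowledge with earlier results of these data known, so a share above the background describes these samples only. Shares are of members that passed the filter. A member hardly expressed untreated can pass through treated libraries alone, so a high share of higher calls is partly built into such lists. Over all lists examined, leaving out 1 line moved 31 of the 41 counts of at least 4 called members, and 30 of the 38 counts of 1 to 3, by over 1.5 times.

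**Figure D2:**
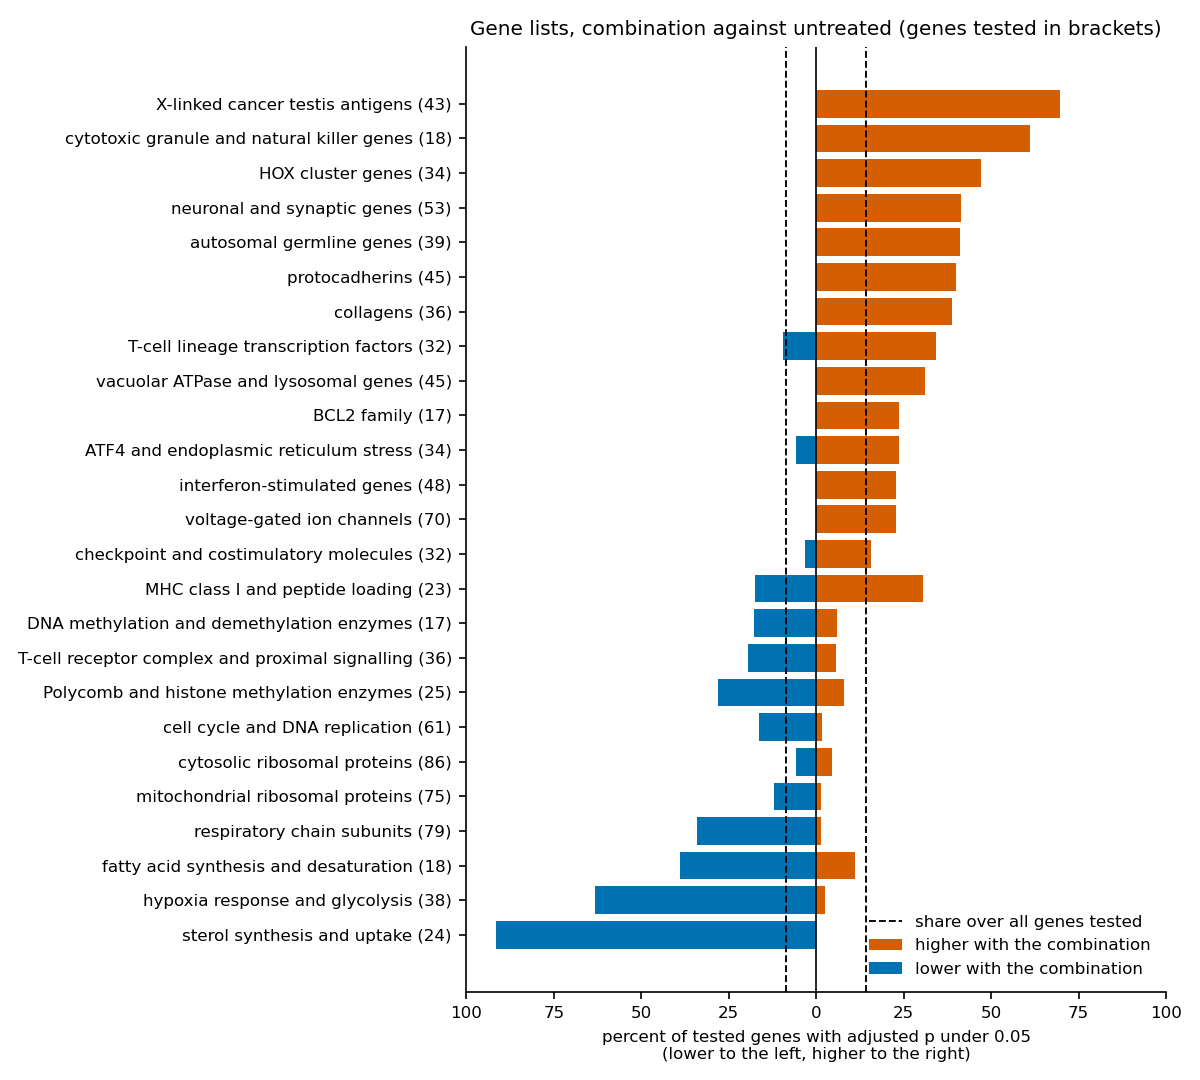
Percent of the tested genes of each list called lower (to the left, blue) or higher (to the right, orange) with the combination, with the number tested in brackets and dashed lines at the shares over all genes, 8.76% lower and 14.2% higher. Among the lists plotted, sterol synthesis lies farthest to the left with 22 of 24 genes lower, and X-linked cancer testis antigens farthest to the right with 30 of 43 higher.

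Genes of cholesterol synthesis fell together, with the largest share of lower calls among the lists plotted. Cells make cholesterol from acetyl-CoA through mevalonate and squalene, and also take it up from outside; the genes for both routes share a transcription factor, SREBP2, which is released to the nucleus when membrane cholesterol is low. Of 24 tested genes of sterol synthesis and uptake 22 fell, against 8.76% of all genes, with a median log2 change of -1.11 against 0.04 over all genes. PMVK and TM7SF2 were the members that were not called. All 22 were lower in 4 of 4 lines, against 13.5% of all genes, an agreement that being called already favours. In 7 each combination library lay below each untreated library, which held for 0.685% of all genes. Leaving out 1 line left 20 to 22 lower calls, and the 8-library fit gave 22 of these genes an unadjusted p under 0.05, against 19.4% of all genes in that fit. The summed level of the list was lower in each line, going from 3081 to 1510 CPM in PF382, 4756 to 2238 in TLOm1, 7244 to 2451 in HH and 4080 to 2051 in H9.

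The promoters of 3 genes are shown because these genes fell together and because promoters of sterol genes are known for CCAAT boxes, the binding letters of nuclear factor Y, a partner of SREBP. Each covers 250 bases before to 50 after the start in the RefSeq table (build GRCh38.p14), 5′ to 3′ on the strand of the gene, with CCAAT or its reverse complement ATTGG in capitals. HMGCS1 lies at chr5:43313363-43313662 on the minus strand, MVK at chr12:109573544-109573843 and SCD at chr10:100346983-100347282, both on the plus strand.
HMGCS1: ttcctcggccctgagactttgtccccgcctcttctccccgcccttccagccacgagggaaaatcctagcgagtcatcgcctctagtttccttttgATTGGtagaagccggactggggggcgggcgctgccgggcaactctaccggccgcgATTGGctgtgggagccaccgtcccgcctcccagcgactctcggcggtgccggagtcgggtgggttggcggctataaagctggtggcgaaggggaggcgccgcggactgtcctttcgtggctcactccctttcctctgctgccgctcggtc
MVK: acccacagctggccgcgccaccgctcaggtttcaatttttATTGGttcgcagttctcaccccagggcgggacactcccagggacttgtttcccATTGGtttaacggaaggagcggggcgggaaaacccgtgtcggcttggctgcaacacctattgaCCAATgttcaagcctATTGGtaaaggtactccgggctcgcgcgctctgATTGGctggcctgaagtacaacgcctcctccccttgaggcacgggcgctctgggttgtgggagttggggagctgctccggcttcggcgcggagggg
SCD: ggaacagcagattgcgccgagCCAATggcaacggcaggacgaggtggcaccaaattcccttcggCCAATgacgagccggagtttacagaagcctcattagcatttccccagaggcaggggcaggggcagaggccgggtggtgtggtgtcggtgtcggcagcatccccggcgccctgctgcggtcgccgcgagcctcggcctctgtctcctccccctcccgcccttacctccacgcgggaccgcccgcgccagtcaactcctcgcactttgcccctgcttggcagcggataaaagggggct
The letters occur 2 times in HMGCS1, 5 times in MVK and 2 times in SCD. Among the 18 sterol genes with a promoter in the RefSeq set, 15 (83.3%) held them, against 36.3% of the 12481 tested genes with one. Lists that did not fall as a group had like shares, 86.7% of clustered histone genes and 81.2% of HOX genes, so a match describes the window and marks no site of binding.

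By step of the pathway, HMGCS1, which makes HMG-CoA, went from 219 to 52.1 CPM in PF382, 292 to 93.2 in TLOm1, 635 to 70.6 in HH and 414 to 76.9 in H9. The groups did not overlap, and HH, the highest untreated line, had the largest drop; the log2 change was -2.41 (SE 0.33, edgeR adjusted p = 4.14e-05). MVK, the kinase of mevalonate, changed by -1.34 (SE 0.19, edgeR adjusted p = 4.33e-05), from 24.3 to 13.3 CPM in PF382 and from 98.0 to 25.9 in HH. FDFT1, squalene synthase, commits the pathway to sterols and went from 398 to 161, 393 to 208, 836 to 222 and 560 to 188 CPM in the same order of lines, without overlap. LSS, lanosterol synthase, closes the sterol ring and changed by -1.25 (SE 0.12, edgeR adjusted p = 7.58e-07), least in PF382 with -0.95 and most in H9 with -1.47.

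INSIG1 holds the SREBP escort protein in the endoplasmic reticulum and is itself switched on by SREBP. It went from 475 to 140 CPM in PF382, 965 to 272 in TLOm1, 507 to 165 in HH and 308 to 90.3 in H9. The 4 log2 changes, -1.76, -1.83, -1.62 and -1.77, had an SD of 0.09 and INSIG1 had an adjusted p of 0.0108 in edgeR's 8-library fit as well.

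Fatty acid genes split. Of 18 tested, 7 fell and 2 rose, against 8.76% and 14.2% of all genes. SCD, which makes monounsaturated fatty acids, had the largest change of those named here, from 871 to 179 CPM in PF382, 774 to 241 in TLOm1, 1886 to 330 in HH and 1622 to 500 in H9, a log2 change of -2.06 (SE 0.21, edgeR adjusted p = 1.21e-06) without overlap. ACACA, the acetyl-CoA carboxylase that commits carbon to fatty acids, changed evenly, by -0.78, -0.74, -0.90 and -0.83. FASN, fatty acid synthase, and ACLY, which supplies cytosolic acetyl-CoA, changed by -0.77 (SE 0.10, edgeR adjusted p = 1.98e-05) and -0.62 (SE 0.08, edgeR adjusted p = 1.63e-05). FADS1, the delta-5 desaturase of polyunsaturated fatty acids, changed by -1.01 (SE 0.20, edgeR adjusted p = 0.00131), with -0.48 in PF382 and -1.33 in HH. LINC00263 (log2 change -2.18, SE 0.20) and LOC100652751 (-2.08, SE 0.21) stand beside SCD in the order of the deposited tables; how strand was treated in counting is not given in the sources used here, so their reads cannot be told apart from those of SCD.

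Glycolysis and the response to low oxygen fell as well, in 3 of the lines more than in the fourth. The transcription factor HIF1 switches on glucose transport, glycolysis and lactate production when oxygen is scarce, and cancer cells often keep these genes high. Of 38 tested genes of this list 24 fell, against 8.76% of all genes, and 1, P4HA2, rose, with a median log2 change of -0.80. The median by line was -1.16 in PF382, -0.76 in HH and -1.11 in H9, but -0.13 in TLOm1. Summed levels went from 21573 to 11495 CPM in PF382, 23734 to 13468 in HH and 29710 to 14980 in H9, and from 26321 to 23514 in TLOm1. Leaving out 1 line gave 16 to 27 lower calls, the most without TLOm1.

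LDHA, which turns pyruvate into lactate, went from 2265 to 603 CPM in PF382, 2044 to 821 in HH and 2152 to 832 in H9, and from 1056 to 952 in TLOm1. The groups did not overlap, TLOm1 being the lowest line before and the highest after (log2 change -1.23, SE 0.21, edgeR adjusted p = 0.000356). GPI, the isomerase of glucose 6-phosphate, changed by -1.24 (SE 0.18, edgeR adjusted p = 8.41e-05), HK2, the hexokinase that traps glucose, by -1.18 (SE 0.18, edgeR adjusted p = 0.000122), TPI1, triosephosphate isomerase, by -0.79 (SE 0.13, edgeR adjusted p = 0.000157) and ALDOC, an aldolase, by -2.18 (SE 0.42, edgeR adjusted p = 0.000904). In each of these 4 the smallest change but for HK2 was that of TLOm1; for HK2 it was HH with -0.83. MIR210HG, the host transcript of the hypoxia microRNA miR-210, had the largest decrease of the genes named by the rule, from 31.1 to 1.77 CPM in PF382, 5.55 to 1.44 in TLOm1, 43.5 to 3.21 in HH and 27.6 to 0.708 in H9, with all 4 combination libraries below all untreated ones.

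PFKFB4, which sets the level of the glycolysis activator fructose 2,6-bisphosphate, showed how uneven this list was. It went from 46.8 to 10.1 CPM in PF382, 95.9 to 12.7 in HH and 179 to 7.48 in H9, but from 7.56 to 6.3 in TLOm1 (log2 change -2.53, SE 0.72, edgeR adjusted p = 0.0144). The call was lost without PF382 (edgeR adjusted p = 0.0551), without HH (0.0785) and without H9 (0.0796). KDM3A, a histone demethylase induced by hypoxia, went from 195 to 85.1, 70.9 to 38.7, 141 to 58.3 and 162 to 60.7 CPM. C6orf223, of unknown role, went from 65.7 to 11, 5.63 to 1.34, 140 to 24.8 and 214 to 25.9 CPM, with an adjusted p of 0.039 in edgeR's 8-library fit.

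Nuclear genes of the respiratory chain were lower in part, and those of the mitochondrial ribosome at a share near that of all genes. The chain holds the complexes that pass electrons to oxygen and make ATP. Of 79 nuclear genes for its subunits 27 fell, against 8.76% of all genes, and 1, COX7B2, rose. Their median log2 change was -0.13, and without HH 12 fell. COX7B2, a germ-cell form of a complex IV subunit named here as the exception, had 0 counts over the 4 untreated libraries and 43 with the combination, at least 15.8-fold higher against a floor of 3 counts over the group. With the combination it had 23 counts in HH, 19 in TLOm1, a single 1 in H9 and 0 in PF382. CYC1, cytochrome c1 of complex III, changed by -0.51 (SE 0.06, edgeR adjusted p = 8.73e-06), from 318 to 197 CPM in HH and from 110 to 83.0 in PF382. UQCRFS1, the Rieske iron-sulfur protein of the same complex, changed by -0.42, -0.29, -0.35 and -0.35 in the 4 lines. Of 75 mitochondrial ribosomal proteins 9 fell and 1 rose, the lower share being near the 8.76% of all genes. Without PF382 3 were lower and without HH 3. MRPS5 changed by -0.35 (SE 0.06, edgeR adjusted p = 0.000554). Of 86 cytosolic ribosomal proteins 5 fell and 4 rose, shares of both kinds below those over all genes.

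**Figure D3:**
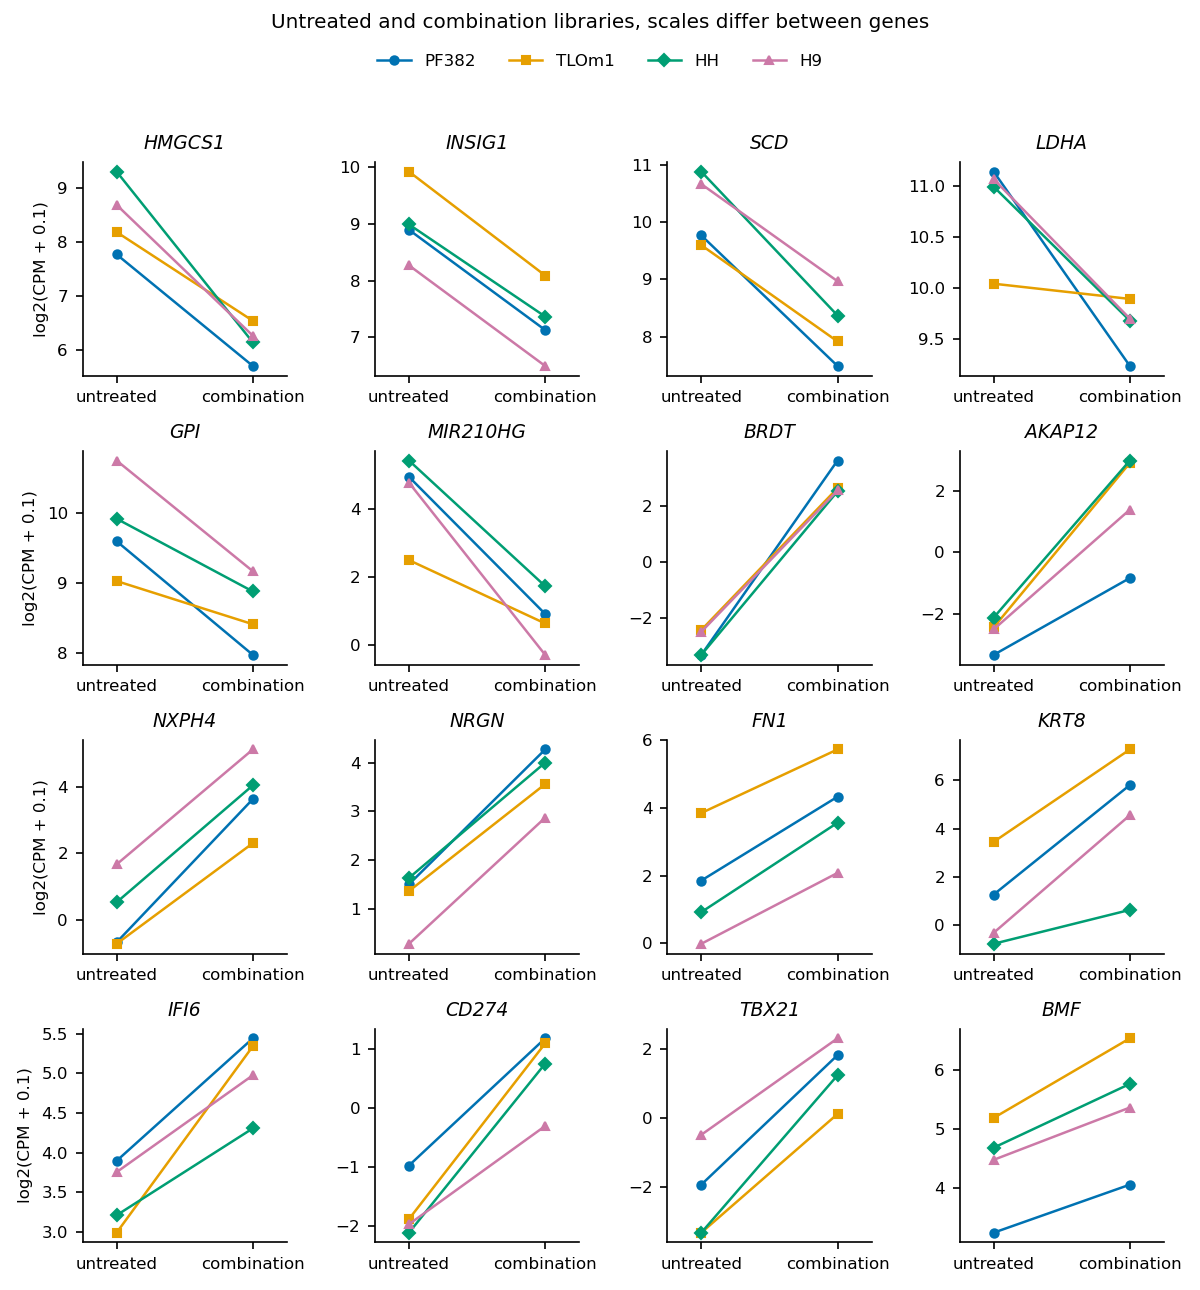
Level of 16 genes as log2(CPM + 0.1) on the vertical axis, with a scale of its own for each gene, in the untreated and the combination library of each of the 4 lines, joined by a line in the colour of the cell line. All 4 lines run downward in the sterol, fatty acid and glycolysis panels, the slope for LDHA in TLOm1 being nearly flat, and upward in the other panels.

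Some genes near 0 before treatment were higher with the combination in all lines. By the rule for such genes (under 1 CPM in each untreated library and at least 10 counts in each combination library) the largest changes belonged to genes of unlike function. BRDT, a testis-specific reader of acetylated histones, went from 0, 0.0854, 0 and 0.0773 CPM to 12.4 in PF382, 6.2 in TLOm1, 5.71 in HH and 5.84 in H9 (log2 change 7.38, SE 0.49, edgeR adjusted p = 4.17e-09). After treatment PF382 was the highest line and the others lay close together. AKAP12, a scaffold that ties protein kinases A and C to the cell cortex, reached 0.463, 7.39, 7.8 and 2.52 CPM from at most 0.131. PTGIR, the prostacyclin receptor, reached 5.44, 1.04, 1.16 and 9.96 CPM from at most 0.309.

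GMPR, which turns guanosine monophosphate into inosine monophosphate, had 1 count over the 4 untreated libraries and 133 with the combination, a ratio of 147 with a 95% counting interval of 25.9 to 5833. SLC15A3, a lysosomal transporter of histidine and peptides, had 1 and 70 counts, a ratio of 77.1 (13.4 to 3090). SLC12A3, the thiazide-sensitive salt transporter of the kidney, reached 1.0 CPM in PF382 and 4.22, 2.46 and 4.12 in the other lines. The uncharacterised LOC100129291 reached 6.94 CPM in TLOm1 and 5.95 in HH, but 1.89 in PF382 and 0.487 in H9. In these 4 genes all combination libraries lay above all untreated ones, which the rule that chose them nearly fixes.

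Cancer testis antigens are proteins of germ cells that most other tissues silence by DNA methylation and that immune cells can recognise on tumors. The files hold 111 symbols of X-linked families, of which 43 passed the filter and 30 rose, against 14.2% of all genes; those that passed had to be expressed somewhere, so this is no count of all members. In untreated cells the number of these symbols with at least 10 counts was 0 in PF382, 1 in TLOm1, 3 in HH and 1 in H9. With the combination it was 21, 29, 25 and 4, so H9 stood apart from the other lines. Summed levels went from 0.98 to 84.8 CPM in PF382, 74.6 to 174 in TLOm1, 22.1 to 148 in HH and 35.9 to 60.4 in H9. Many of these families have near-identical copies that counting may split, so single members are uncertain.

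The promoters of BRDT and SSX1 are shown because both genes were silent in all lines and rose, yet differ in CpG, the pair of letters that DNA methyltransferases act on. They are again RefSeq windows of build GRCh38.p14 on the plus strand, at chr1:91949121-91949420 for BRDT and chrX:48255142-48255441 for SSX1, with CG in capitals.
BRDT: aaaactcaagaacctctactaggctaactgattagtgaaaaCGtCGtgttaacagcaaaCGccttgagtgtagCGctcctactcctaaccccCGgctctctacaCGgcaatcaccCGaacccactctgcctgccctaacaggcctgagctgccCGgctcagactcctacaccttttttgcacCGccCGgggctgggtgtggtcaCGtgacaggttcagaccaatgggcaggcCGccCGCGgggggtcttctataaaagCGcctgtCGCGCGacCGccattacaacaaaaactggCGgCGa
SSX1: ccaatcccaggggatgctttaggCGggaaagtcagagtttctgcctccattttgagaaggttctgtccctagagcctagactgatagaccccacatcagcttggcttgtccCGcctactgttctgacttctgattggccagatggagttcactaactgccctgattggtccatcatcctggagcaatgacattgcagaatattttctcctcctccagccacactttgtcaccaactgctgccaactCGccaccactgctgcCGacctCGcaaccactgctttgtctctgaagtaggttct
BRDT holds 21 CG pairs, an observed over expected ratio of 0.87, and SSX1 holds 5, a ratio of 0.26. Among the 34 X-linked antigens with a promoter in the RefSeq set, 9 (26.5%) had a ratio of at least 0.6, against 75.9% of all tested genes with one. Among genes under 1 CPM in each untreated library that ratio was reached by 45.4% of those called higher and 45.5% of those not called. Methylation itself was not measured in these libraries.

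SSX1, a transcriptional repressor of the testis, went from 0, 0, 0.131 and 0 CPM to 0.81 in PF382, 13.2 in TLOm1, 10.7 in HH and 0.221 in H9. MAGEA4 of the melanoma antigen family had 1 count over the 4 untreated libraries and 173 with the combination, a ratio of 191 (95% counting interval 33.8 to 7574), at 1.93, 1.14, 4.32 and 0.31 CPM. PNMA5 reached 39.2 CPM in PF382 and 28.6 in HH, but 1.98 in TLOm1 and 0.177 in H9. PAGE5 reached 8.95 CPM in PF382 and 1.49 to 2.04 in the other lines. In SSX1, MAGEA4 and PNMA5 H9 was the lowest line.

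Of 39 tested autosomal germline genes 16 rose, against 14.2% of all genes, with a median log2 change of 1.64. DAZL, which binds RNA in germ cells, reached 16.4 CPM in TLOm1 and 15.2 in HH, but 0.81 in PF382 and 0.221 in H9. MAEL, which acts in the piRNA pathway against transposons, reached 5.9, 7.79 and 5.06 CPM in PF382, TLOm1 and HH and stood at 0.133 in H9, where it had been at 0.0773. TEX19, a germ-cell and placental gene, was on before treatment and rose in each line, from 9.63 to 63.8, 110 to 292, 0.916 to 10.6 and 5.52 to 29.4 CPM (log2 change 2.45, SE 0.37, edgeR adjusted p = 9.75e-05).

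Neuronal genes formed another group with a share of higher calls above that of all genes. Many are kept silent outside the nervous system by the REST repressor, which works through histone deacetylases. Of 53 tested neuronal and synaptic genes 22 rose, against 14.2% of all genes, with a median log2 change of 1.18. Leaving out 1 line gave 13 to 16, the fewest without HH. The summed level of the list rose from 966 to 1201 CPM in PF382, 1191 to 1383 in TLOm1 and 1759 to 1802 in H9. In HH it fell from 1166 to 1068. NRGN, neurogranin, a calmodulin-binding protein of synapses, went from 2.74 to 19.2 CPM in PF382, 2.48 to 11.7 in TLOm1, 3.01 to 15.9 in HH and 1.12 to 7.22 in H9. The groups did not overlap and the 4 log2 changes lay between 2.20 and 2.78 (fit 2.54, SE 0.22, edgeR adjusted p = 2.17e-07). NXPH4, a neurexophilin, which binds neurexins at synapses, went from 0.531 to 12.3, 0.512 to 4.86, 1.35 to 16.4 and 3.09 to 34.7 CPM without overlap. MAP2, the microtubule-associated protein of dendrites, reached 4.71, 6.05 and 6.5 CPM in PF382, TLOm1 and HH and 0.443 in H9. CHGB, chromogranin B of secretory granules, stayed low, at 2.46 CPM in HH, 2.83 in H9, 0.501 in PF382 and 0.149 in TLOm1. NPTXR, a receptor of neuronal pentraxins, rose to 24.8 CPM in HH and 28.6 in H9.

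Of 70 tested subunits of voltage-gated ion channels 16 rose, against 14.2% of all genes, and 7 without PF382. SCN4B, an accessory subunit of sodium channels, reached 6.33 CPM in PF382 and 6.15 in TLOm1, 1.16 in HH and 0.221 in H9. KCNH3, a potassium channel of the forebrain, went from 8.46 to 38.8 CPM in H9 and from 0.531 to 6.63 in PF382 (log2 change 2.71, SE 0.41, edgeR adjusted p = 0.000101). ZNF365 changed by 3.11 (SE 0.30, edgeR adjusted p = 7.58e-07), with 2.33 to 3.57 over the lines.

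Some matrix, keratin and developmental genes of tissues other than T cells were called higher too, though the summed levels of these families did not always rise. Of 36 tested collagen genes 14 rose, against 14.2% of all genes, and without PF382 8 did and without HH 9. The summed collagen level rose from 81.5 to 307 CPM in PF382 and 271 to 621 in TLOm1. It fell from 1172 to 1052 in HH and 81.3 to 77.6 in H9. COL1A1, the main chain of type I collagen, went from 2.33 to 30.6, 0.299 to 5.95, 0.131 to 4.09 and 3.9 to 15.2 CPM without overlap (log2 change 3.71, SE 0.61, edgeR adjusted p = 0.00022). FN1, fibronectin, went from 3.51 to 20.0, 14.3 to 52.9, 1.79 to 11.7 and 0.888 to 4.12 CPM, with line changes between 1.88 and 2.65. KRT8 and KRT18, the keratin pair of simple epithelia, changed by 4.26 (SE 0.47, edgeR adjusted p = 4.21e-06) and 4.24 (SE 0.57, edgeR adjusted p = 3.11e-05). KRT8 went from 2.29 to 55.9 CPM in PF382, 10.8 to 156 in TLOm1, 0.48 to 1.44 in HH and 0.695 to 23.4 in H9. KRT7 fell, from 33.1 to 9.62 CPM in TLOm1, 53.3 to 11.8 in HH and 91.3 to 57.7 in H9, and was near 0 in PF382 (log2 change -1.45, SE 0.24, edgeR adjusted p = 0.000263). In all, 9 of 20 keratins rose, against 14.2% of all genes, and 1 fell, and 5 rose without PF382. The summed keratin level fell from 106 to 78.7 CPM in HH and rose in the other lines.

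Of 34 tested HOX genes, which set position along the body axis, 16 rose, against 14.2% of all genes. Without PF382 5 did, without HH 8 and without H9 9. The summed HOX level fell from 309 to 232 CPM in TLOm1 and rose in the other lines. Of 45 protocadherins, cell adhesion genes in clusters with similar copies, 18 rose, against 14.2% of all genes. Without PF382 11 did, without TLOm1 8 and without HH 11. PDLIM7, a PDZ and LIM protein of the actin cytoskeleton, had the smallest p of the genes that were higher in 4 of 4 lines with a mean of at least 1 CPM untreated, and went from 15.6 to 34.1, 8.88 to 21.3, 12 to 26.3 and 62.0 to 115 CPM (log2 change 1.10, SE 0.09, edgeR adjusted p = 1.39e-07). CREG1, a lysosomal glycoprotein, TPST2, which sulfates tyrosines of secreted proteins, and PRPF40B, a splicing factor, changed by 1.05 (SE 0.11), 1.26 (SE 0.15) and 1.03 (SE 0.12). F2R, the thrombin receptor, PLCD3, a phospholipase C, and C1QL4 changed by 1.58 (SE 0.31), 1.43 (SE 0.19) and 3.90 (SE 0.56).

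Some markers of other blood and tissue cells were called higher as well, while the summed levels of 3 of these 5 lists went both ways between lines. Of the tested markers 5 of 10 for myeloid cells, 4 of 12 for B cells, 3 of 5 for erythroid cells and megakaryocytes, 5 of 15 for fibroblasts and 3 of 12 for epithelium rose, against 14.2% of all genes, and 1 for B cells and 1 for epithelium fell. Markers hardly expressed untreated can pass the filter through treated libraries alone, so a high share is partly built in. Among all genes with a mean under 1 CPM over the 32 libraries 21.8% were called higher. Without PF382 1 myeloid, 2 B-cell and 1 erythroid or megakaryocyte marker rose. Without TLOm1 or HH 2 B-cell markers and 1 erythroid or megakaryocyte marker did. Their summed levels spanned 6.24 to 68.1 CPM untreated and 13.6 to 112 with the combination for the 18 myeloid markers, and 1.02 to 3.93 and 2.08 to 8.22 for the 18 erythroid and megakaryocyte markers, of which GYPB and PF4 were at 0 in all 8 libraries. The ranges were 3.07 to 431 and 24.7 to 410 for B cells, 299 to 3284 and 533 to 3306 for fibroblasts, and 18.6 to 259 and 19.4 to 323 for epithelium. By line, the fibroblast sum fell from 1117 to 699 CPM in HH and 3284 to 2307 in H9 and rose in PF382 and TLOm1. The B-cell sum fell from 50.9 to 47.1 in PF382 and 431 to 410 in HH and rose in TLOm1 and H9. The epithelial sum fell from 59.4 to 19.4 in HH and rose in the other lines. The labels name cell lines only, and the part of these markers in the other groups was not tested.

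Interferon-stimulated genes are induced by virus-like nucleic acids and can follow loss of DNA methylation when retroelements are transcribed. Of 48 tested 11 rose, against 14.2% of all genes, or 6 without PF382 and 7 without TLOm1 or HH. Their median log2 change was 0.47. IFI6 went from 14.8 to 43.4 CPM in PF382, 7.85 to 40.5 in TLOm1, 9.16 to 19.7 in HH and 13.4 to 31.4 in H9, without overlap (log2 change 1.56, SE 0.20, edgeR adjusted p = 2.14e-05). IRF7, the factor that amplifies interferon transcription, went from 7.14 to 13.6, 7.3 to 10.1, 6.02 to 19.4 and 7.84 to 20.7 CPM, also without overlap. OAS3, which senses double-stranded RNA, changed by 1.01 (SE 0.21, edgeR adjusted p = 0.00198), with 0.42 in H9 and 2.21 in HH. The summed level of the list was higher in PF382, TLOm1 and HH and went from 3368 to 2967 CPM in H9.

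For antigen presentation 7 of 23 tested class I and peptide loading genes rose and 4 fell, against 14.2% and 8.76% of all genes. Without PF382, HH or H9 3 were higher, and 1 was lower without TLOm1 and 0 without HH. HLA-B and B2M, described next, are among those that rose, and the 4 that fell are not described. HLA-B, a class I heavy chain with close relatives, went from 53.1 to 396 CPM in PF382, a line that was low before, against 806 to 1274, 1510 to 2251 and 1079 to 1310 in the others (log2 change 1.13, SE 0.36, edgeR adjusted p = 0.0264). Without PF382 the change was 0.50, still called, and the call was lost without HH (edgeR adjusted p = 0.0799) and without H9 (0.0537). B2M, the light chain, changed by 0.85, 0.77 and 0.37 in PF382, TLOm1 and HH and by -0.29 in H9 (log2 change 0.43, SE 0.13, edgeR adjusted p = 0.0193). That call was lost without PF382 (edgeR adjusted p = 0.20), TLOm1 (0.195) or HH (0.0922).

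Among 32 checkpoint and costimulatory molecules 5 rose, a share close to the 14.2% of all genes, and 1 fell; without HH 8 rose. CD274, the checkpoint ligand PD-L1, went from 0.408 to 2.16, 0.171 to 2.03, 0.131 to 1.58 and 0.155 to 0.708 CPM, low in all libraries but without overlap (log2 change 2.86, SE 0.43, edgeR adjusted p = 9.48e-05). PVRL2, nectin-2, a ligand of the receptors TIGIT and DNAM-1, reached 7.95, 7.98 and 3.95 CPM from under 0.5 in PF382, TLOm1 and HH, and went from 24.9 to 41.1 in H9. TNFSF9, the ligand of the costimulator 4-1BB, changed by 1.26 (SE 0.29, edgeR adjusted p = 0.00348). TNFRSF14, the herpesvirus entry mediator, fell in each line, from 8.49 to 5.55, 81.6 to 40.5, 68.7 to 27.5 and 68.9 to 28.1 CPM.

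T-cell identity genes went both ways. Of 36 genes of the receptor complex and proximal signalling 7 fell and 2 rose, against 8.76% and 14.2% of all genes. Without HH 2 were lower and without H9 4. THEMIS, needed for receptor signalling in thymocytes, went from 135 to 31.0 CPM in PF382, 59.4 to 28.8 in HH and 46.8 to 7.66 in H9, and was under 1 in TLOm1. UBASH3A, which restrains receptor signalling, changed by -0.95 (SE 0.20, edgeR adjusted p = 0.00147), and CD3E, a receptor subunit, by -0.36 (SE 0.09, edgeR adjusted p = 0.00881), a call lost without HH (-0.32, edgeR adjusted p = 0.0582). LAT, the adaptor below the receptor, rose from 34.0 to 106 CPM in TLOm1 and 200 to 401 in PF382 (log2 change 0.87, SE 0.19, edgeR adjusted p = 0.00212).

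Of 32 T-lineage transcription factors 11 rose and 3 fell, against 14.2% and 8.76% of all genes, and without HH 7 rose. TBX21, the factor of T helper 1 and cytotoxic cells, went from 0.163, 0, 0 and 0.618 CPM to 3.47, 0.992, 2.28 and 4.91, without overlap (log2 change 4.39, SE 0.80, edgeR adjusted p = 0.000521). ETS1 and ID2 changed by 0.60 (SE 0.12, edgeR adjusted p = 0.0016) and 1.82 (SE 0.41, edgeR adjusted p = 0.0034), ID2 by 0.38 in PF382 and 3.18 in HH. BCL11B, which keeps cells in the T lineage, changed by -0.51 (SE 0.12, edgeR adjusted p = 0.00383). Of 18 cytotoxic and natural killer genes 11 rose, against 14.2% of all genes, with 5 without PF382, 6 without TLOm1 or H9 and 7 without HH. GZMM, a granzyme, went from 1.63 to 12.7, 0.171 to 1.34, 0.175 to 2.56 and 32.1 to 55.9 CPM. PRF1, perforin, rose mainly in 2 lines, from 0.213 to 6.25 CPM in TLOm1 and 2.53 to 39.4 in HH, against 1.92 to 2.39 in PF382 and 147 to 206 in H9. Its call (log2 change 2.15, SE 0.59, edgeR adjusted p = 0.0123) was lost without TLOm1 (1.76, edgeR adjusted p = 0.055) and without HH (1.32, edgeR adjusted p = 0.191).

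In the BCL2 family, which controls the mitochondrial route of apoptosis, 4 of 17 genes rose, against 14.2% of all genes. These were BAK1, BMF, PMAIP1 and BCL2L12. BMF, a BH3-only killer protein, went from 9.35 to 16.5, 36.2 to 92.2, 25.5 to 54 and 22.1 to 40.9 CPM, an increase in each line (log2 change 1.03, SE 0.19, edgeR adjusted p = 0.000582). PMAIP1, known as NOXA, changed by 1.80 in TLOm1 and 0.13 in PF382 (fit 0.98, SE 0.20, edgeR adjusted p = 0.00143). BAK1, a pore former of the outer membrane, changed by 0.42 (SE 0.07, edgeR adjusted p = 0.000146), with 0.31 to 0.53 over the lines. CDKN1A, the cell cycle inhibitor p21, went from 2.08 to 14.1 CPM in PF382 and 2.7 to 11.6 in H9, 10.2 to 16.9 in HH, and from 169 to 249 in TLOm1 (log2 change 1.39, SE 0.31, edgeR adjusted p = 0.00315).

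Of 61 cell cycle and replication genes 10 fell and 1 rose, against 8.76% and 14.2% of all genes. BUB1B, a kinase of the spindle checkpoint, and CCNA2, cyclin A2, changed by -0.42 (SE 0.07, edgeR adjusted p = 0.000296) and -0.49 (SE 0.09, edgeR adjusted p = 0.000526). TK1, thymidine kinase, was the member that rose, by 0.67 (SE 0.12, edgeR adjusted p = 0.000691).

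In the stress lists 8 of 34 genes that respond to ATF4 or to stress of the endoplasmic reticulum rose, or 5 without H9, and 2 fell, against 14.2% and 8.76% of all genes. SLC7A5 and SLC1A5, carriers of large neutral amino acids and of glutamine, changed by 0.68 (SE 0.14, edgeR adjusted p = 0.00157) and 0.63 (SE 0.10, edgeR adjusted p = 0.000214), most in HH and H9. HSPA2, a testis-enriched heat shock protein, went from 3.51 to 9.18, 2.26 to 8.38, 0.393 to 5.2 and 2.01 to 4.6 CPM without overlap. Of 6 tested metallothioneins, which bind zinc and copper, 5 rose, against 14.2% of all genes, or 2 without PF382. MT2A changed by 1.62 (SE 0.36, edgeR adjusted p = 0.00279), and MT1X by 0.71 to 0.91 over the lines.

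Of 45 tested genes of lysosomes and their proton pump 14 rose, against 14.2% of all genes, with 5 without HH and 9 without H9. NEU1, the lysosomal sialidase, went from 25.8 to 32.6, 14.5 to 26, 13.2 to 28.4 and 24.0 to 33.1 CPM; its lowest combination library was just above its highest untreated one. CTSD, cathepsin D, changed by 0.40 to 0.52 over the lines (fit 0.45, SE 0.11, edgeR adjusted p = 0.00732), a call lost without HH (0.42, edgeR adjusted p = 0.0699). ATP6V0A1, a subunit of the proton pump, changed by 0.51 (SE 0.13, edgeR adjusted p = 0.00608).

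Of 17 tested enzymes of DNA methylation and demethylation 1 rose and 3 fell, against 14.2% and 8.76% of all genes. DNMT1, the maintenance methyltransferase trapped by azacitidine, stood at 719 and 693 CPM in PF382, 535 and 606 in TLOm1, 466 and 537 in HH and 956 and 969 in H9 and was not called (log2 change 0.09, SE 0.07, edgeR adjusted p = 0.368). DNMT3B, a de novo methyltransferase, rose, from 57.3 to 220, 2.82 to 6.15, 0.305 to 6.13 and 56.4 to 181 CPM (log2 change 2.05, SE 0.37, edgeR adjusted p = 0.000571). TET2 and TET3, which oxidise methylcytosine, changed by -0.53 (SE 0.12, edgeR adjusted p = 0.0028) and -0.39 (SE 0.09, edgeR adjusted p = 0.00534), the latter call lost without H9 (-0.36, edgeR adjusted p = 0.0651). Of 18 histone deacetylases and sirtuins 3 rose, a share near the 14.2% of all genes, and 3 fell, against 8.76%. HDAC7, a class IIa enzyme of thymocytes, changed by -0.62 (SE 0.11, edgeR adjusted p = 0.000652).

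Of 25 Polycomb and histone methylation enzymes 7 fell and 2 rose, against 8.76% and 14.2% of all genes. KDM6B, a demethylase of the Polycomb mark, changed by -0.73 (SE 0.10, edgeR adjusted p = 5.07e-05) and SETDB1, which silences retroelements, by -0.34 (SE 0.07, edgeR adjusted p = 0.00213), with -0.06 in HH. PCGF2, a Polycomb ring finger protein, changed by 1.56 (SE 0.30, edgeR adjusted p = 0.000954). RSF1, a chromatin remodelling factor, TBCA, a tubulin chaperone, and CMAHP, a pseudogene of sialic acid hydroxylation, were named by the rule among the lower genes, the last for its difference from azacitidine alone, with -0.61 (SE 0.07), -0.55 (SE 0.06) and -1.41 (SE 0.25). H2AFX, the histone variant marked at DNA breaks, changed by 0.43 (SE 0.07, edgeR adjusted p = 0.00033), with 0.35 to 0.56 over the lines.

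For drug handling, ABCB1, the efflux pump P-glycoprotein, of which romidepsin is a substrate, had 2 counts over the 4 untreated libraries and 70 with the combination, a ratio of 38.6 (95% counting interval 10.3 to 325). It reached 2.6 CPM in HH, 0.446 in TLOm1, 0.177 in H9 and 0.0386 in PF382, and the call (edgeR adjusted p = 0.00103) was lost without HH (0.0808). Of 23 tested genes of azacitidine uptake and nucleotide metabolism 2 rose and 2 fell, against 14.2% and 8.76% of all genes. The other 19 were not called, and the median log2 change was -0.02. CDA, cytidine deaminase, which inactivates azacitidine, had 0 and 34 counts, at least 12.5-fold higher against a floor of 3 counts over the group. Without TLOm1, where it was highest at 1.04 CPM, CDA did not pass the filter. SAMHD1, which hydrolyses deoxynucleotides, changed by 0.78 (SE 0.17, edgeR adjusted p = 0.00212). Of 39 ABC transporters 8 rose and 3 fell, against 14.2% and 8.76% of all genes, with 5 higher without PF382 and 2 without HH.

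The combination was next set directly against each drug alone, in contrasts that leave out the untreated libraries. Against azacitidine alone at 250 nM 611 genes (3.43%) were higher and 399 (2.24%) lower, 5.67% in all. Against romidepsin alone 1588 (8.92%) were higher and 927 (5.21%) lower, 14.1% in all. Without HH the first contrast called 202 genes, without PF382 300, without TLOm1 517 and without H9 633, each over 1.5 times fewer than 1010, and the second called 1309 without HH to 1671 without PF382 against 2515. Fitted on the compared groups alone, edgeR called 0 genes against azacitidine (2464 at an unadjusted p under 0.05) and 39 against romidepsin. The changes of each drug against untreated cells are given beside these for reference and share the same 4 untreated libraries with the combination.

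In the groups that fell, more members differed from romidepsin alone than from azacitidine alone. Of 24 sterol genes 21 were lower than with romidepsin alone, against 5.21% of all genes, and 3 lower than with azacitidine alone, against 2.24%, with median differences of -0.87 and -0.27. Summed sterol levels with azacitidine alone were 1989 CPM in PF382, 3150 in TLOm1, 3259 in HH and 2094 in H9, and with romidepsin alone 2176, 4193, 5785 and 3818. HMGCS1 differed by -2.02 from romidepsin (edgeR adjusted p = 0.000391) and by -0.45 (SE 0.32, edgeR adjusted p = 0.426) from azacitidine, the latter too uncertain to call either way. ACACA, LSS, INSIG1 and FASN were each named above and each was lower than with azacitidine alone, with differences from -0.74 to -0.36 and edgeR adjusted p from 0.00269 to 0.0489.

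Glycolysis followed the same order. Of its 38 genes 15 were lower than with romidepsin alone, against 5.21% of all genes, and 1 was higher than with azacitidine alone, the median difference from azacitidine being -0.01. LDHA differed by -0.16 (SE 0.21, edgeR adjusted p = 0.70) from azacitidine and by -0.98 (edgeR adjusted p = 0.00407) from romidepsin. Among X-linked antigens 27 of 43 were higher than with romidepsin alone, against 8.92% of all genes, and 1 was lower than with azacitidine alone. Their summed levels with azacitidine alone were 76.3, 208, 177 and 68.1 CPM and with romidepsin alone 1.33, 83.7, 12.5 and 34.9.

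Neuronal genes had another order. Of 53 tested 12 were higher than with azacitidine alone and 8 higher than with romidepsin alone, against 3.43% and 8.92% of all genes. For NRGN the 4 levels were 4.31, 4.14, 4.59 and 1.52 CPM with azacitidine, 6.4, 4.29, 10.5 and 2.78 with romidepsin, and 19.2, 11.7, 15.9 and 7.22 with both. The difference was 1.91 from azacitidine (SE 0.22, edgeR adjusted p = 0.00013) and 1.25 from romidepsin (edgeR adjusted p = 0.000518). AKAP12 stood at 0.0784 to 0.741 CPM with azacitidine and at most 0.337 with romidepsin, against 0.463 to 7.8 with both, a difference of 3.71 (SE 0.51, edgeR adjusted p = 0.000603) and of 4.91 (edgeR adjusted p = 1.13e-05). MAP2 differed by 3.21 (SE 0.49, edgeR adjusted p = 0.00114) and 1.48 (edgeR adjusted p = 0.0271).

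Several genes were higher with both drugs than with either alone, HH having more romidepsin by its labels in the combination than alone. TBX21 was at 0.0392, 0.0436, 0 and 1.95 CPM with azacitidine and 0.344, 0.191, 0.193 and 0.529 with romidepsin, against 3.47, 0.992, 2.28 and 4.91 with both. Its difference was 3.35 from azacitidine (SE 0.72, edgeR adjusted p = 0.00918) and 3.32 from romidepsin (edgeR adjusted p = 0.00538). BMF was at 10.8, 55, 15 and 20.4 CPM with azacitidine and 6.36, 35.1, 28.8 and 17.8 with romidepsin, below the combination in each line, and differed by 1.02 (SE 0.19, edgeR adjusted p = 0.00431) and 1.19 (edgeR adjusted p = 0.000342). CDKN1A differed by 1.33 (SE 0.31, edgeR adjusted p = 0.0163) and 1.03 (edgeR adjusted p = 0.0283), and IFI6 by 0.98 (SE 0.20, edgeR adjusted p = 0.00641) and 1.13 (edgeR adjusted p = 0.000781). CD274 differed from azacitidine by 1.82 (SE 0.39, edgeR adjusted p = 0.00964) but from romidepsin by 0.53 (edgeR adjusted p = 0.35). CMAHP was lower with both than with either drug, with a difference of -1.14 each time (edgeR adjusted p = 0.0109 and 0.0045).

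**Figure D4:**
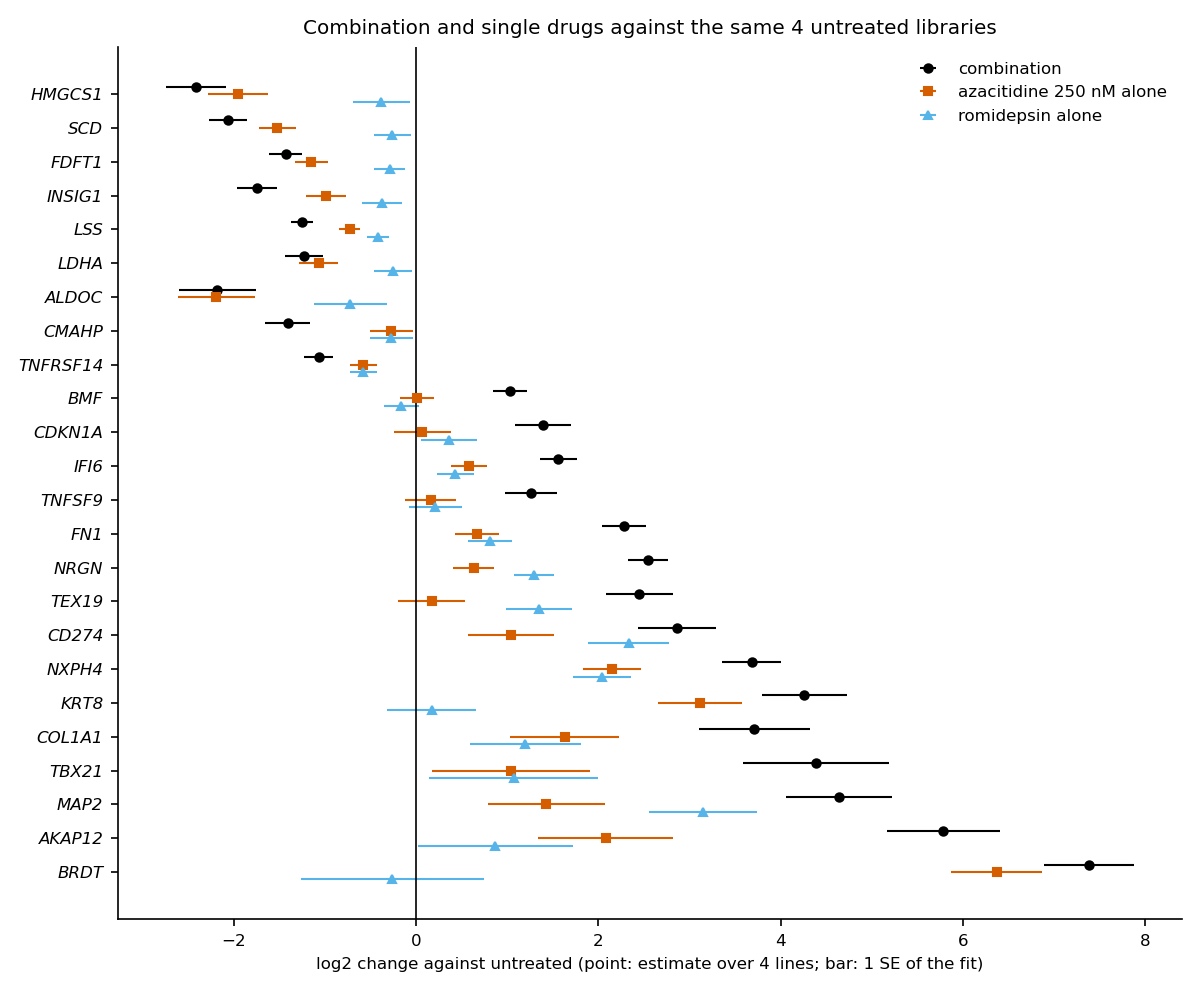
Log2 change against the same 4 untreated libraries, on the horizontal axis, of 24 genes with the combination (black circles), azacitidine 250 nM alone (orange squares) and romidepsin alone (blue triangles), with bars of 1 SE of the fit over 4 lines. For HMGCS1 and LDHA the azacitidine point lies near the combination, while for NRGN, AKAP12, TBX21 and BMF the combination lies beyond both single drugs. By its labels HH had more romidepsin in the combination than alone.

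Against the combination with azacitidine at 125 nM, the dose given with romidepsin to all 4 lines below 250 nM, 5 genes (0.0281%) were called, 5 higher and 0 lower by edgeR, with 913 at an unadjusted p under 0.05 (591 higher, 322 lower), and 9 by DESeq2 (8 higher, 1 lower). Fitted on the compared groups alone, edgeR called 87 (79 higher, 8 lower). The 5 were BRDT, PAGE5, MAGEA4, PNMA5 and DCAF4L1, the last named after its values were seen. BRDT was at 3.58, 0.523, 0.645 and 2.4 CPM at 125 nM against 12.4, 6.2, 5.71 and 5.84 at 250 nM (difference 2.25, SE 0.31, edgeR adjusted p = 0.00199). With azacitidine at 500 nM, given with romidepsin to PF382 and TLOm1, it was at 37.7 and 22.3. MAGEA4 differed by 3.69 (SE 0.44, edgeR adjusted p = 0.000432), PNMA5 by 3.01 (SE 0.47, edgeR adjusted p = 0.00783), PAGE5 by 2.85 (SE 0.49, edgeR adjusted p = 0.0217) and DCAF4L1 by 1.89 (SE 0.29, edgeR adjusted p = 0.00607). Without HH or without H9 1 gene was called. The sum of X-linked antigens with romidepsin was 10.6, 98.4, 47.4 and 39.3 CPM at 125 nM and 84.8, 174, 148 and 60.4 at 250 nM in PF382, TLOm1, HH and H9, and 294 and 299 in the first pair of lines at 500 nM. The sterol sum was lower at each higher azacitidine dose in all 4 lines, with and without romidepsin, standing at 1623, 3122, 2742 and 2622 CPM at 125 nM with romidepsin against 1510, 2238, 2451 and 2051 at 250 nM. These sums come from single libraries and carry no test.

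**Figure D5:**
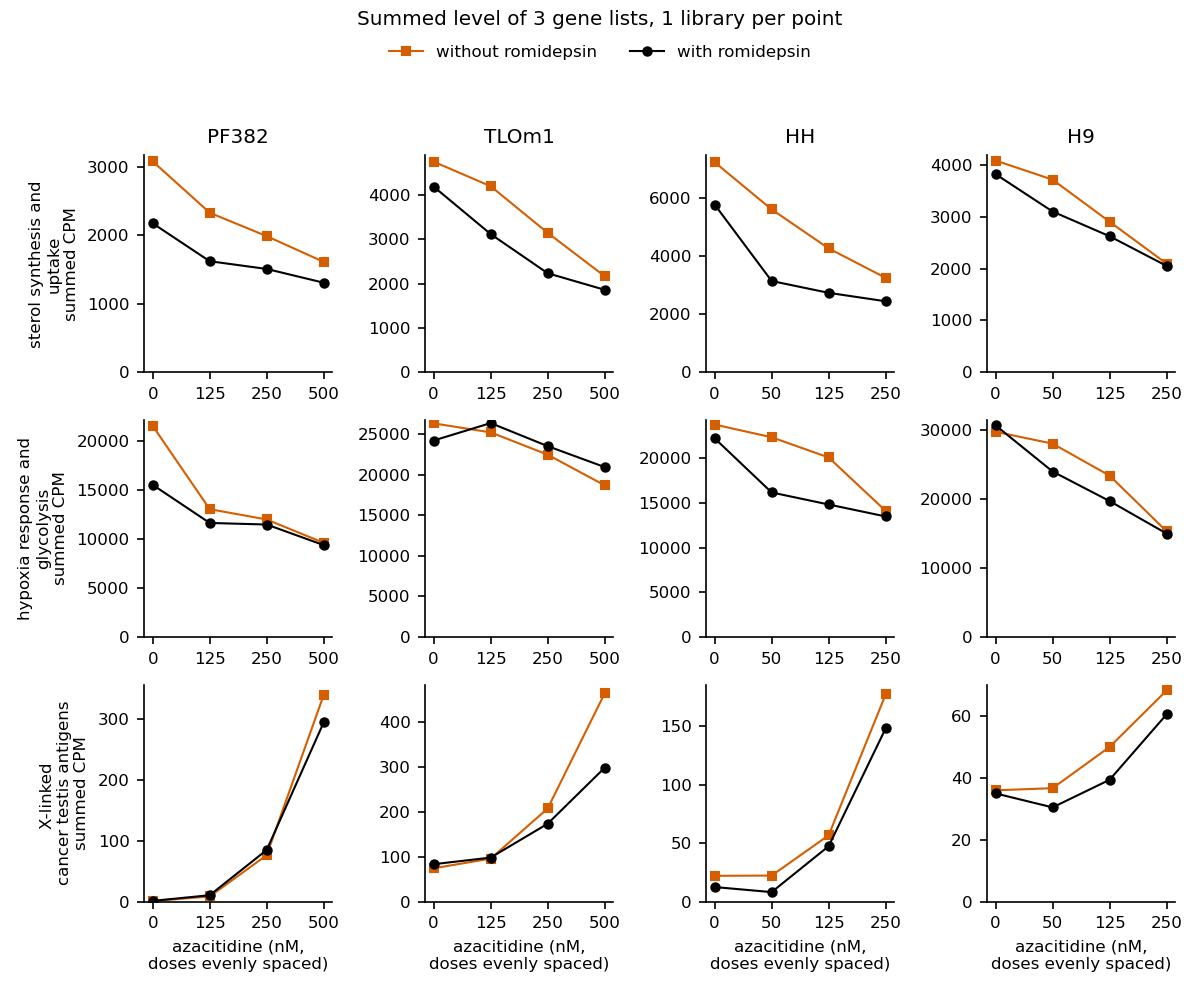
Summed CPM of 3 gene lists (rows) in each line (columns) against the azacitidine dose in nM, evenly spaced, without romidepsin (orange squares) and with it (black circles), 1 library per point. The sterol sum steps down with each dose in every panel, while the antigen sum in PF382 goes from 10.6 CPM at 125 nM to 84.8 at 250 nM and 294 at 500 nM with romidepsin.

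The change was last compared between the 2 cutaneous lymphoma lines and the 2 leukemia lines, in a model with 14 residual degrees of freedom. The difference, cutaneous minus leukemia, was called in 19 genes (0.107%). It was negative in 18 of them (0.101%), a lower log2 change in the cutaneous lines, and positive in 1 (0.00562%). The sign does not give the size of a change, since a negative difference can also be a larger decrease. That split depends on the lines and the tool. Without H9 96 differences were positive and 31 negative, without HH 7 and 6, and without TLOm1 10 and 103. DESeq2 gave 26 and 46 and limma-voom 12 and 51. ANXA1, annexin A1, went from 0.776 to 9.37 CPM in PF382 and 12 to 86.3 in TLOm1, but from 180 to 162 in HH and 32.3 to 41.0 in H9 (difference -3.01, SE 0.31, edgeR adjusted p = 0.000241). BLK, a kinase of B cells, went from 0 to 0.694 and 1.28 to 18.2 CPM in the leukemia lines and from 429 to 403 and 52.0 to 51.5 in the cutaneous ones (difference -3.90, SE 0.43, edgeR adjusted p = 0.000407). CCDC114, of the dynein arms of cilia, and RNF43, a ubiquitin ligase that dampens Wnt signals, differed by -1.93 (SE 0.30, edgeR adjusted p = 0.019) and -1.76 (SE 0.27, edgeR adjusted p = 0.019). AIG1, a hydrolase of fatty acid esters, was the gene with the positive difference, 2.61 (SE 0.49, edgeR adjusted p = 0.0495). It went from 0.0436 to 1.44 CPM in HH and 0.502 to 2.12 in H9. In ANXA1, BLK, CCDC114 and RNF43 the lines that rose more were those with the lower untreated level, as was the case for AIG1, and the part of the starting level in the difference was not tested. Over all lines the RNF43 change (1.12) was not called without PF382 (0.74, edgeR adjusted p = 0.145) or TLOm1 (0.88, edgeR adjusted p = 0.0765), nor that of AIG1 (1.06) without TLOm1 (1.43, edgeR adjusted p = 0.0613), HH (0.61, edgeR adjusted p = 0.175) or H9 (0.75, edgeR adjusted p = 0.227).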

How the data were processed

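RNA from 4 cell lines was sequenced on strand-specific libraries; per the labels the molecule is poly(A) RNA and ribosomal RNA was depleted. The authors deposited 1 table of read counts per library, whole numbers for 25559 gene symbols, not normalized; totals over the 32 libraries ran from 16175077 to 32496676. The submitters' processing notes name STAR, DESeq2, limma and GRCh37.p2, without roles or versions, and which program counted the reads, on which annotation and with which strand option, is not given in the sources used here. Reads were counted without molecular identifiers as far as the labels state, so counting intervals (95%, Clopper-Pearson on the split of the counts) and the floor of 3 counts cover counting error only.

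From these counts, edgeR 4.0.16 (R 4.3.3) was fitted with TMM scaling, a filter at a minimum count of 10 (7758 symbols not tested), 10 groups of treatment and dose over all 32 libraries and cell line as a term, with robust quasi-likelihood tests and Benjamini-Hochberg adjustment at 0.05. CPM are on TMM-scaled totals. Untreated and combination libraries are paired because they come from the same line; their deviations from the group means correlated at 0.895 to 0.929. The difference between disease classes added class by group terms. DESeq2 1.42.0, limma 3.58.1 (voom), RLE size factors, no filter, a minimum count of 50, the compared groups alone, no cell line term and leaving out each line were the alternatives. The tests were also run on simulated counts of independent libraries, with a set change that was equal in all lines. That simulation holds no difference of response between lines. It therefore cannot show how counting libraries of the same line as independent affects the calls.

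Genes named: the 8 with the smallest p in each direction with the same sign in 4 lines and a mean of at least 1 CPM untreated; the 8 largest increases from under 1 CPM to at least 10 counts in each library; the 8 largest decreases from at least 5 CPM; the 4 with the smallest p in each direction between disease classes; the 4 largest differences in each direction from azacitidine alone; and, per gene list, key genes and the 3 called members with the smallest p. That rule names 268 genes, of which some are not reported here; the first of each part are described, with 7 more chosen after their values were seen, 114 in all. The comparison, the members and the lists were chosen with earlier results of these data known. Promoters are RefSeq windows of build GRCh38.p14 matched by symbol, for 12481 of 17801 tested genes.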

Additional observations from a re-analysis of the deposited data

Results flagged for a closer look

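Over the 114 genes described, the 4 line changes were examined for 1 line that stands apart from the other lines. Chance alone marks about 1 gene in 20. The genes marked here are about as many as that rate gives, so the marks describe these values and are no evidence of a difference between lines. In GMPR the log2 change in TLOm1 was 5.50, above the other lines. In CHGB TLOm1 was the low line with 0.88. CREG1 changed by 1.17 in PF382, slightly above the 0.99 to 1.01 of the other lines. PVRL2 changed by 0.72 in H9, which had the highest untreated level. HLA-B changed by 2.90 in PF382, which had the lowest. SETDB1 changed by -0.06 in HH, close to no change.

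The difference of the change between cutaneous lymphoma and leukemia lines, tested in the model with disease class, was -3.01 for ANXA1, -3.90 for BLK, -1.93 for CCDC114, -1.76 for RNF43 and 2.61 for AIG1 on the log2 scale. With 2 lines per class, line and class cannot be told apart.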

How the results depend on the processing

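Of the 114 genes described, RLE size factors and no filter kept the direction and the side of the threshold in 114, DESeq2 in 112, limma-voom in 112 and leaving out a line in 105 to 111. With only the groups compared 26 of the 107 that could be fitted kept it and 81 lost the call, and without the replicate block 6 kept it, 106 lost the call and 2 turned. The total against untreated, 4089, was 3566 to 4175 under RLE, DESeq2, limma-voom, no filter and the stricter filter. Limits come from the design: with 1 library per condition and line, the number of calls rests on the spread shared over 32 libraries, and genes of a few counts have wide intervals.

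With only the groups compared, edgeR called 22 genes against untreated (14 higher, 8 lower), 0 against azacitidine (2464 at an unadjusted p under 0.05), 39 against romidepsin and 87 against the 125 nM combination. Without the replicate block (no cell line term) it called 5 (3 higher, 2 lower), 0 (189 unadjusted), 1 and 0 (42 unadjusted) in the same order. For the disease classes neither of these fits was run. Leaving out 1 line gave 2588 to 3116 genes against untreated (1577 to 1963 higher, 993 to 1153 lower), 202 to 633 against azacitidine, 1309 to 1671 against romidepsin, 1 to 6 against the 125 nM combination and 13 to 127 between disease classes, the most without H9. DESeq2 called 9 against the 125 nM combination and 72 between classes, limma-voom 63 and the stricter filter 31 between classes. Without the block the log2 change turned from 0.99 to -0.03 in BLK and from 0.45 to -0.28 in CCDC114, which limma-voom gave as -0.08; none of these values was called and the cause was not tested.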

Other observations

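Gene groups not described so far moved in part, beside 14.2% of all genes called higher and 8.76% called lower. Of 31 tested cytokines and chemokines 9 rose, or 5 without PF382 or TLOm1, and 3 fell, with a median log2 change of 0.53. Of 20 tubulins, some of them near-identical copies, 7 rose, or 4 without HH and 3 without H9, and 1 fell. Of 29 targets of p53 6 rose, or 2 without PF382 and 3 without TLOm1 or H9, and 2 fell. Of 25 subunits and targets of NF-kB 1 rose and 5 fell, or 2 without TLOm1 and 3 without HH. Of 483 zinc finger genes of the ZNF series, many of which repress retroelements, 29 rose (12 without HH, 15 without H9) and 46 fell (24 without PF382, 30 without TLOm1, 27 without HH), shares of the tested members below and close to those over all genes. Of 57 clustered histone genes 1 fell. The 3 of 10 linker and replication-independent histones that rose included H2AFX. Of 19 class II genes of antigen presentation 2 rose and 1 fell, and of 25 sensors of nucleic acids 4 rose and 3 fell.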
